A study of Mus musculus with 12 samples.

Results

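9130409I23Rik, Pir, Osgin1, Arpp19, Cds2, Cdc34, Dcaf12 and Lgr4 are 8 of the 18193 genes measured in mouse liver here. They were chosen by name because earlier readings of the same arrays had shown a CDDO-Im effect in wild type liver that was not matched in Nrf2 null liver, and because they are less familiar in that setting than the detoxification enzymes. The annotation of the array names 1 of them, and no other gene, on 19 of the 34945 probe sets that name a single gene. Where a gene had several probe sets, the main one was the brightest over the 12 arrays, and the others are reported beside it.

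The study measured total RNA from male mouse livers on 1-colour Affymetrix arrays, in 4 groups of 3 arrays. Wild type mice and Nrf2 null mice received either CDDO-Im at 30 uM/kg, as the labels write the dose, or vehicle at a dose of 0, by gavage, and the time given is 6 hours for all groups. The null genotype is labelled as an Nrf2 knockout, and no driver or conditional allele is named. Strain and age are not given in the sources used here. The labels also do not say that the arrays of a group are from different animals, so p-values measure only the spread between arrays, which may be technical. A mark, "(2)", closes every vehicle title and no CDDO-Im title, and whatever it stands for cannot be told apart from the compound.

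Nrf2, encoded by Nfe2l2, is a transcription factor that Keap1 marks for destruction in unstressed cells. Electrophiles such as CDDO-Im, a synthetic triterpenoid, modify Keap1, and Nrf2 then enters the nucleus, pairs with a small Maf protein and binds antioxidant response elements. In liver it is best known for raising genes of glutathione synthesis, quinone reduction and conjugation. Of the 8 genes described here, 9130409I23Rik has no stated role, and the other 7 act elsewhere: in iron-dependent nuclear cofactors, growth inhibition, ubiquitin transfer, phosphatase control, phospholipid synthesis and Wnt receptor signalling.

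The promoter windows of the genes, 250 bases before to 50 bases after each transcription start in RefSeq on build GRCm38.p6, were searched for the core of the antioxidant response element, TGACNNNGC, on both strands. It was present in 4 of the 8 genes, against 13.99% of the 27025 genes with a window and 40.7% of 27 well known Nrf2 target genes. The stretches with the matches before the start are printed because they show where the 3 genes carry the core; all are on the plus strand, and capitals mark the matched bases.
9130409I23Rik, chr1:181051062-181051181: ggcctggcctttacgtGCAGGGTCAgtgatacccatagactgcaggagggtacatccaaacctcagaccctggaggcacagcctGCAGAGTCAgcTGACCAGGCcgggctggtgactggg
Pir, chrX:164269181-164269300: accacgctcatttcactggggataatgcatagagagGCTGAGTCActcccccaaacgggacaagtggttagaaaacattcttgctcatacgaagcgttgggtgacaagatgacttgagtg
Lgr4, chr2:109917397-109917516: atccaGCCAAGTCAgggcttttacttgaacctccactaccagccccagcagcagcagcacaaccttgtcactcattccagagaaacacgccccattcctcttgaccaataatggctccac

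9130409I23Rik held 3 matches, the nearest 80 to 72 bases before the start. The Pir match, 214 to 206 bases before its start, reads TGACTCAGC on the other strand, a fuller form of the element that was found in 0.503% of genes with a window and in 2 of the 27 well known targets. Pir had a further match and Dcaf12 its single match 19 to 27 bases after the start. No match lay in the windows of Osgin1, Arpp19, Cds2 or Cdc34, which says only that these letters are not within those 300 bases. A match is a description of the sequence and not a site shown to be bound.

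The arrays matched their genotype labels. The brighter Nfe2l2 probe set read 8.37 to 9.14 (log2 intensity, the unit of every level below) in wild type and 4.44 to 4.96 in Nrf2 null livers, without overlap, while the dimmer one, at 4.63 to 5.19, did not separate them. Array medians were 5.77 to 5.83. The 8 hepatocyte markers had gene means of 10.5 to 14.4 over the 12 arrays. The lowest group mean among them was 9.21, in Nrf2 null vehicle liver. Transcripts of pancreatic acinar cells, 10 of 13 listed being measured, stood a median of 3.39 above their mean in wild type vehicle replicate 3 and 1.79 above it in Nrf2 null vehicle replicate 2, against -0.66 to -0.37 on the other 10 arrays. Their part in the results was not tested beyond a fit without both arrays, from which only counts of genes called are given, at the end.

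With CDDO-Im, 7 of the genes stood higher and Lgr4 lower in wild type liver, with the 3 treated and 3 vehicle arrays separate for each of the 8. Over all genes, 8.42% were higher and 8.18% lower without overlap. In Nrf2 null liver 5 of the 8 overlapped, 2 were higher and 1 was lower without overlap, where 11.6% and 11.4% of all genes were. At an adjusted p under 0.05 (limma, Benjamini-Hochberg over all 18193 genes), 7 were called higher and 1 lower in wild type, where 0.978% and 0.846% of all genes were called in those directions. In the null livers 1 was called higher, where 3.58% of genes were, and 0 lower, where 2.32% were, with 3 of the 8 at an unadjusted p under 0.05 in either direction, as were 19.4% of all genes. The wild type effect minus the null effect, called the genotype difference below, was called for all 8, of 25 genes in all, or 0.137%. That count did not hold with fewer arrays: it was 2 to 6 with any 1 of the 12 left out (5, 5 and 6 without wild type vehicle replicates 1, 2 and 3, 3, 2 and 4 without the wild type CDDO-Im replicates, 6, 2 and 3 without the null vehicle replicates, 4, 2 and 3 without the null CDDO-Im replicates). In those 12 fits 9130409I23Rik and Pir were called each time, Osgin1 in 7, Cds2 in 6, Arpp19 in 4, Lgr4 in 2, and Cdc34 and Dcaf12 in 1. With all arrays the difference was above 0 for 7, as for 0.126% of genes, and below 0 for Lgr4, as for 0.011%. These 3 contrasts chose the genes, so the counts describe the choice and test nothing. The median effect of the 8 was 1.06 log2 units in wild type and -0.04 in null liver, against 0.01 and -0.00 over all genes. In whole liver, a lower level from fewer cells of a type and from less RNA per cell cannot be told apart.

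**Figure D1:**
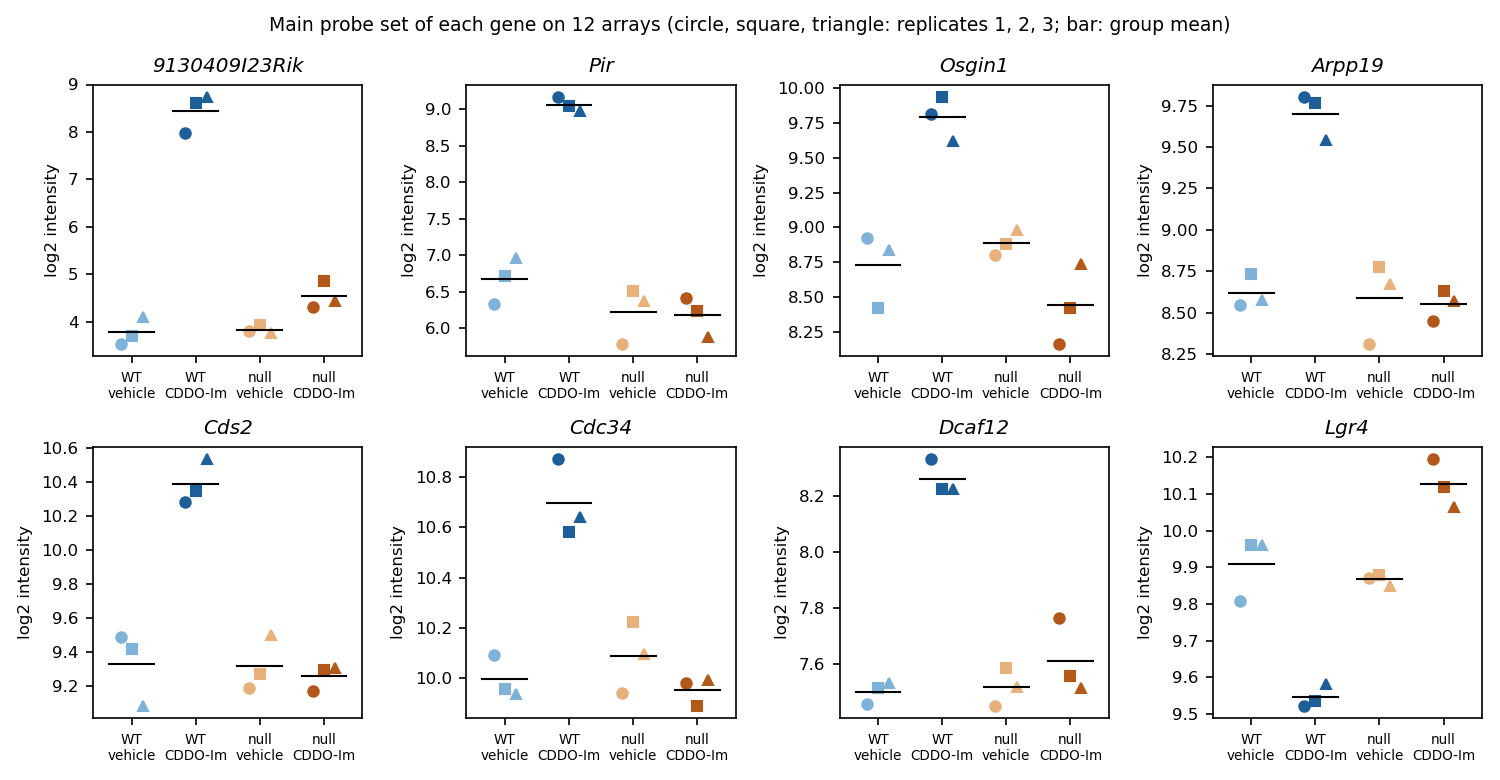
Log2 intensity (y axis) of the main probe set of each of the 8 genes on each of the 12 arrays, with a symbol for each replicate and bars for group means; each panel has its own axis. The wild type CDDO-Im arrays stand above the 9 others for 7 genes and below them for Lgr4.

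Pir encodes pirin, an iron-binding nuclear protein of the cupin family that acts as a cofactor of Bcl3 and NF-kB. In wild type liver it read 6.34, 6.72 and 6.97 with vehicle and 9.17, 9.04 and 8.98 with CDDO-Im. In Nrf2 null liver it read 5.79, 6.51 and 6.38 with vehicle and 6.41, 6.24 and 5.89 with CDDO-Im. The treated wild type arrays lay together and far above the rest, and the null groups overlapped. The effect was 2.39 ± 0.20 (SE) in wild type, a 5.23-fold higher level, and -0.04 ± 0.20 in null liver, with a genotype difference of 2.43 ± 0.28. Of the 18193 genes it had the 25th highest wild type effect and the 11th highest genotype difference.

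Osgin1 encodes an oxidative stress induced growth inhibitor. Wild type arrays read 8.92, 8.42 and 8.84 with vehicle and 9.82, 9.94 and 9.62 with CDDO-Im. Null arrays read 8.80, 8.88 and 8.98 with vehicle and 8.16, 8.42 and 8.74 with CDDO-Im. The groups were separate in both genotypes but in opposite directions, treated arrays being the higher in wild type and the lower in null liver. Levels were 2.10-fold higher in wild type (1.07 ± 0.16) and differed by -0.45 ± 0.16 in null liver. Over all genes, 11.4% had treated null arrays lower without overlap. The genotype difference was 1.52 ± 0.22, of which the null effect made up a part.

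9130409I23Rik is known here only by its clone name, and no role is stated for it. Vehicle arrays read 3.54, 3.70 and 4.11 in wild type and 3.80, 3.93 and 3.77 in null liver. With CDDO-Im, wild type arrays read 7.98, 8.60 and 8.74. Null arrays read 4.30, 4.86 and 4.44 with CDDO-Im. Both genotypes thus had treated arrays above vehicle arrays without overlap, as 11.6% of all genes did in null liver. The effect was 4.66 ± 0.20 in wild type and 0.70 ± 0.20 in null liver, and the genotype difference was 3.95 ± 0.29. Every value outside the treated wild type group lay below the array medians, where intensities compress toward the background. The table gives no detection call, so these values are not shown to be above background. The 3 differences are those of the deposited values, their true size is uncertain, and no fold or rank is given. The null effect did not pass the threshold with all arrays, but it passed without wild type vehicle replicate 3 and without wild type CDDO-Im replicate 1.

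Cdc34 and Dcaf12 both serve ubiquitin ligases. Cdc34 is an E2 enzyme that hands ubiquitin to substrates held by cullin 1 ligases. It read 10.09, 9.96 and 9.94 in vehicle and 10.87, 10.58 and 10.64 in CDDO-Im wild type liver. The null arrays read 9.94, 10.22 and 10.10 with vehicle and 9.98, 9.89 and 9.99 with CDDO-Im. All treated wild type arrays were above all 9 others, and the null groups overlapped. The effects were 0.70 ± 0.10, or 1.63-fold, and -0.13 ± 0.10, with a genotype difference of 0.84 ± 0.14. RefSeq lists a near copy, Cdc34b, whose transcripts a probe set may not tell from those of Cdc34.

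Dcaf12 is a substrate receptor of cullin 4 ligases. It read 7.46, 7.51 and 7.53 with vehicle and 8.33, 8.22 and 8.23 with CDDO-Im in wild type, and 7.45, 7.59 and 7.52 with vehicle and 7.76, 7.56 and 7.52 with CDDO-Im in null liver. The wild type vehicle arrays were within a few hundredths of each other, and the treated ones stood clear of every other array. The effects were 0.76 ± 0.08, or 1.69-fold, and 0.09 ± 0.08, with a genotype difference of 0.67 ± 0.11. The other Dcaf12 probe sets were brighter with CDDO-Im in wild type too, by 0.57, 0.44 and 0.12, and the last of them had a mean of only 3.82. Their null effects were 0.05, -0.31 and -0.08.

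Arpp19 is a small phosphoprotein that, once phosphorylated by Greatwall kinase, inhibits the PP2A phosphatase with a B55 subunit. It read 8.55, 8.73 and 8.58 with vehicle and 9.80, 9.76 and 9.54 with CDDO-Im in wild type. It read 8.31, 8.78 and 8.68 with vehicle and 8.45, 8.63 and 8.57 with CDDO-Im in null liver. Treated wild type arrays were again above all others, and the null groups overlapped. The effects were 1.08 ± 0.12, or 2.12-fold, and -0.04 ± 0.12, with a genotype difference of 1.12 ± 0.17.

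The other Arpp19 probe sets gave wild type effects of 1.04 and 0.79, close to the main one, but higher null effects, of 0.37 and 0.25. Their genotype differences were smaller, 0.67 and 0.54. The brighter had treated null arrays above null vehicle arrays without overlap, as 11.6% of all genes did on their main probe set. On that probe set, null vehicle arrays read 6.45, 6.56 and 6.72 against 7.17, 7.25 and 7.16 in wild type. The null vehicle arrays were all lower, which the main probe set did not show. The difference was -0.61 ± 0.11, with an adjusted p of 0.0419 by limma over the probe sets that name a single gene. That call held in 6 of 12 fits with 1 array left out. It was lost without any one of wild type vehicle replicates 1 and 2, wild type CDDO-Im replicates 1 and 2, and null vehicle replicates 1 and 2, with adjusted p-values from 0.0503 to 0.184.

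Cds2 makes CDP-diacylglycerol from phosphatidic acid, the step that feeds phosphatidylinositol synthesis. Wild type liver read 9.49, 9.42 and 9.08 with vehicle and 10.28, 10.35 and 10.53 with CDDO-Im. Null liver read 9.18, 9.27 and 9.50 with vehicle and 9.17, 9.29 and 9.30 with CDDO-Im. Treated wild type arrays were the highest of the 12, and the null groups overlapped. The effects were 1.06 ± 0.12, or 2.08-fold, and -0.06 ± 0.12, with a genotype difference of 1.12 ± 0.17. Over all 6 Cds2 probe sets the wild type effect ran from 0.53 to 1.29 and the null effect from -0.10 to 0.34. The main probe set is of a kind that can share probes with other sequences, and 2 others can share them between transcripts.

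Lgr4 is a receptor for R-spondins that strengthens Wnt signalling, and the only one of the 8 with a lower level under CDDO-Im in wild type. It read 9.81, 9.96 and 9.96 with vehicle and 9.52, 9.54 and 9.58 with CDDO-Im in wild type. Null liver read 9.87, 9.88 and 9.85 with vehicle and 10.20, 10.12 and 10.06 with CDDO-Im. The treated arrays lay below vehicle in wild type and above vehicle in null liver, with no overlap in either. The effects were -0.36 ± 0.07, a 1.29-fold lower level, and 0.26 ± 0.07, a 1.20-fold higher one, with a genotype difference of -0.62 ± 0.10. A second Lgr4 probe set, with a mean of 5.48, overlapped between groups and gave 0.095 in wild type and -0.043 in null liver, so the pattern rests on 1 probe set. The wild type call was lost without wild type vehicle replicate 2 or any 1 of the 3 wild type CDDO-Im arrays. The null call held only without wild type vehicle replicate 1 or 3, of the 12 fits with 1 array left out.

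**Figure D2:**
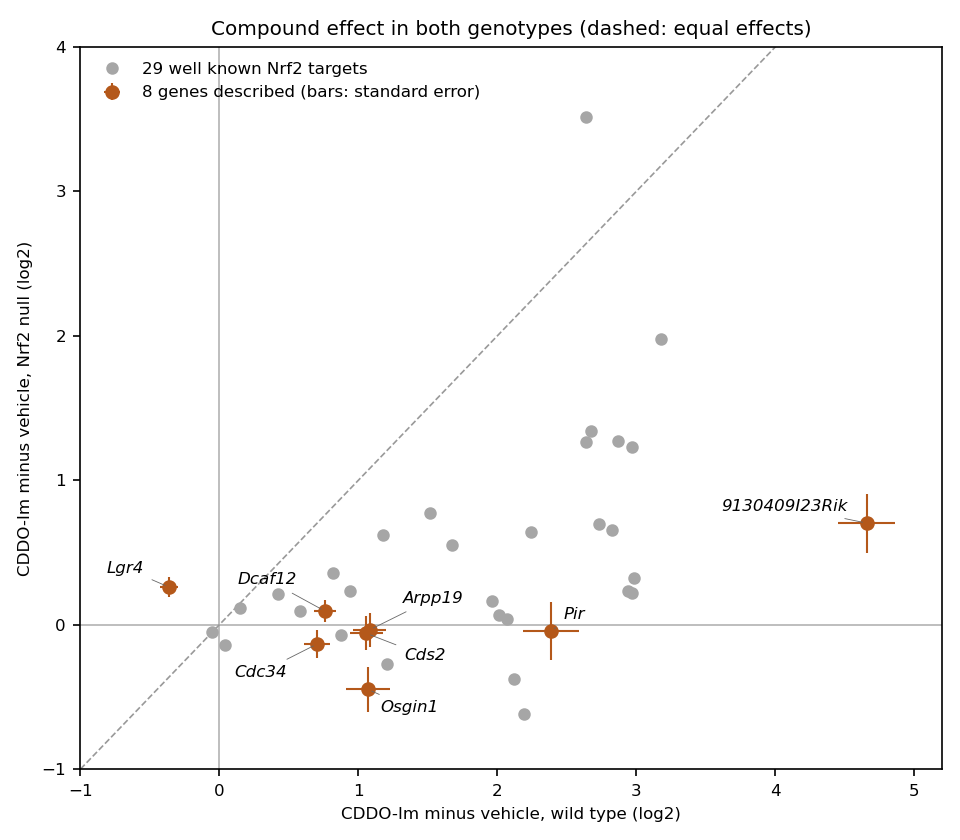
Effect of CDDO-Im (log2 units) in wild type liver (x axis) against that in Nrf2 null liver (y axis), for the 8 genes, with bars of 1 SE, and for 29 well known Nrf2 targets in grey; the dashed line marks equal effects. Among the 8, wild type effects run from -0.36 for Lgr4 to 4.66 for 9130409I23Rik, and null effects from -0.45 for Osgin1 to 0.70 for 9130409I23Rik.

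Compared between genotypes under CDDO-Im, null liver differed from wild type by -3.91 log2 units for 9130409I23Rik, -2.88 for Pir, -1.35 for Osgin1, -1.15 for Arpp19, -1.13 for Cds2, -0.75 for Cdc34 and -0.65 for Dcaf12, and by 0.58 for Lgr4. The 7 lower and 1 higher were all called, where 0.824% and 0.621% of genes were called in those directions, or 1.45% in all. The choice used these arrays too, so the values are a description.

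The choice did not use Nrf2 null against wild type with vehicle as a contrast, but both of its groups entered the choice as the vehicle side of the compound effects, so it is not independent of them. Called were 0 of the 8 (limma, adjusted p under 0.05), where 0.39% of all genes were called, and 1 of the 8, Pir, had an unadjusted p under 0.05, as did 13.2% of all genes. Pir differed by -0.45 ± 0.20 (95% interval -0.88 to -0.01, adjusted p = 0.365), with overlapping groups. The other 7 differed by -0.04 to 0.16, with adjusted p-values of 0.717 or more. The widest of their intervals, for 9130409I23Rik, ran from -0.40 to 0.49, so a small difference at baseline could not be seen.

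**Figure D3:**
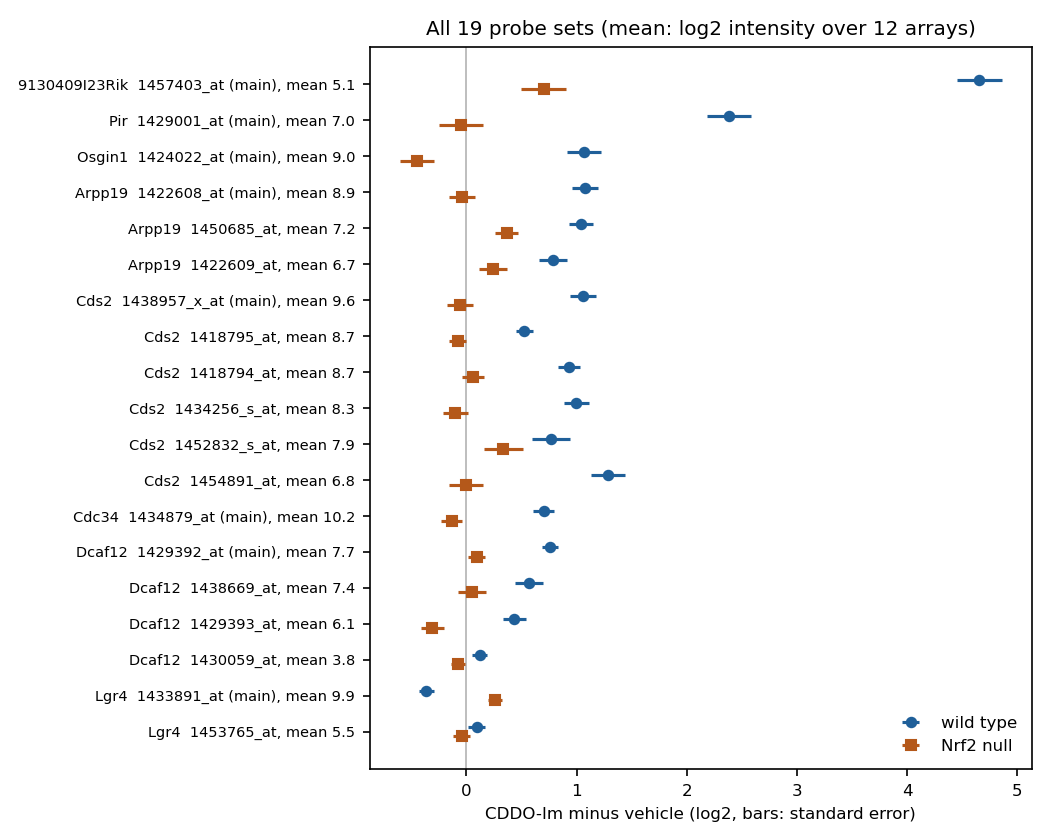
Effect of CDDO-Im on each of the 19 probe sets naming 1 of the 8 genes, in wild type (circles) and in Nrf2 null liver (squares), in log2 units with bars of 1 SE. The 11 probe sets beside the main ones include 10 that were higher in wild type without overlap and 1, of Lgr4, that overlapped.

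Across all 19 probe sets, 17 were higher with CDDO-Im in wild type without overlap, 1 lower and 1 overlapping. Of the 34945 probe sets that name a single gene, 8.73% were higher and 7.57% lower without overlap. The 10 further probe sets of Arpp19, Cds2 and Dcaf12 all had a wild type effect above their null effect. Probe sets of 1 gene are not replicates, since they read the same RNA.

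The genes varied together across the 12 arrays. Among the 7 that were higher in treated wild type liver, Pearson's r ran from 0.80 to 0.97, and with Lgr4 it ran from -0.96 to -0.75. The points share their arrays and the 4 groups, so these values mostly restate the group means. The 3 genes most like each, over the same 12 arrays, were for 9130409I23Rik the glutathione reductase Gsr (r = 0.98), the glutathione transferase Gstm3 (0.98) and the crystallin Crygn (0.98). For Pir they were the glucuronosyltransferase Ugt2b35 (0.97), the quinone reductase Nqo1 (0.97) and Arpp19 (0.97). For Osgin1 they were Mageb16 (0.94), Srxn1, the sulfiredoxin gene (0.94), and Ppfibp2 (0.92). For Arpp19 they were Pir (0.97), Gsr (0.97) and the thioredoxin gene Txn1 (0.95). A high r does not measure the size of an effect. Mageb16 differed with CDDO-Im by only 0.09 in wild type and -0.04 in null liver, and Crygn by 0.33 and 0.07. Neither was called for the genotype difference (limma, adjusted p = 0.819 and 0.486).

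Cds2 was nearest to the carbonyl reductase Cbr3 (0.96), Nqo1 (0.95) and the heme transporter Slc48a1 (0.95). Cdc34 was nearest to Pgd, of the pentose phosphate pathway (0.96), Srxn1 (0.95) and Arpp19 (0.95). Dcaf12 was nearest to Cbr1, another carbonyl reductase (0.97), Hfe, a regulator of iron uptake (0.97), and Gstm4 (0.97). Lgr4 was nearest to Igf1 (0.90), the lipogenic factor gene Thrsp (0.90) and Tlcd2 (0.89). Of these 18 genes outside the 8, 10 were called for the genotype difference, where 0.137% of all genes were. They were picked by their likeness to genes chosen by that contrast, so the count tests nothing.

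Of 32 well known Nrf2 targets, 29 were measured, and CDDO-Im raised 25 of them in wild type liver (limma, adjusted p under 0.05), with none lower. Over all genes, 0.978% were called higher and 0.846% lower there. In null liver 10 rose and 1 fell, where 3.58% and 2.32% of all genes did. The genotype difference was called for 12, where 0.137% of all genes were. The median effect of the list was 2.07 in wild type and 0.23 in null liver, against 0.01 and -0.00 over all genes. The list was chosen with earlier results of these data known, so the counts are a description. Srxn1 rose by 2.19 in wild type and fell by 0.62 in null liver, with a genotype difference of 2.81, so a gene of opposite direction in the 2 genotypes is found there as well as among the 8. Nqo1 rose by 2.07 in wild type and differed by 0.04 in null liver, and Cbr3 gave 2.01 and 0.07. The null count of 11 fell to 2 without null CDDO-Im replicate 3, 4 without null vehicle replicate 1, 5 without null vehicle replicate 2 and 5 without null CDDO-Im replicate 2.

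The lists of partners and pathway relatives held few called genes in wild type with all arrays. With 1 array left out, the count was 0 to 1 for the Lgr4 and Arpp19 lists and 0 to 2 for those of Cds2 and of Pir and Osgin1. It was 0 to 4 for the Cdc34 list and 0 to 3 for the Dcaf12 list. Other alternatives gave up to 5 for the Cdc34 and Dcaf12 lists and up to 3 for those of Cds2 and Arpp19. The unadjusted counts of the lists can be set beside the shares of all genes at an unadjusted p under 0.05, which were 13.6% in wild type and 7.10% for the genotype difference. Their counts of genes that rose in null liver stand beside the 3.58% of all genes called higher there. For Lgr4, 18 R-spondins, sister receptors, ligases and Wnt genes were measured. Of these, 0 were called in wild type (limma, 1 at an unadjusted p under 0.05). In null liver 1 rose, Lect2 by 0.48 (adjusted p = 0.0365), and the genotype difference was called for 0 (2 unadjusted). The Lect2 call held in 5 of 12 fits with 1 array left out, and was lost without wild type vehicle replicate 1, wild type CDDO-Im replicate 3, null vehicle replicates 1 or 2, or any 1 null CDDO-Im array. The Wnt target Tbx3 had the same signs as Lgr4, -0.35 in wild type and 0.35 in null liver (adjusted p = 0.145 and 0.0836). But with vehicle, Tbx3 in null liver differed from wild type by -0.58 (limma, adjusted p = 0.0449), and under CDDO-Im by 0.11 (adjusted p = 0.816). Lgr4 differed by -0.04 with vehicle and by 0.58 under CDDO-Im. The count of this list called with vehicle, 1, was 0 to 1 with 1 array left out. Rnf43, a ligase that removes Wnt receptors, gave -0.03 and 0.48.

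Of 16 genes of phosphatidic acid and CDP-diacylglycerol use, 5 had an unadjusted p under 0.05 in wild type (limma) and 1 was called, as higher. That was Lpin2, a phosphatidic acid phosphatase, which rose by 0.89 (adjusted p = 0.0146, limma) in wild type and by 0.84 (adjusted p = 0.0136) in null liver. The wild type call was lost without wild type vehicle replicate 1 or 2 or wild type CDDO-Im replicate 2, and the null call without null vehicle replicate 1 or null CDDO-Im replicate 3. Pi4ka, a phosphatidylinositol kinase, gave 0.43 in wild type (adjusted p = 0.0766). The sister enzyme Cds1, named here for its relation, gave 0.05 and -0.11. In null liver 1 rose and 1 fell, where 3.58% and 2.32% of all genes did. The genotype difference was called for 0 of the 16 (limma, 0 unadjusted). Compared directly between genotypes, 1 of the 16 was called, Ptpmt1. It was higher in null liver by 0.74 with vehicle (limma, adjusted p = 0.0206) and by 1.01 under CDDO-Im (adjusted p = 5.56e-04). With 1 array left out, the vehicle count of this list was 0 to 1.

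Among the ubiquitin ligase genes, 0 of 15 measured beside Cdc34 and 0 of 18 beside Dcaf12 were called in wild type (limma, 6 unadjusted in each list, where 13.6% of all genes were). The genotype difference was called for 0 of either list (1 and 3 unadjusted, against 7.10% of all genes). In null liver 3 of each list rose, where 3.58% of all genes did; in the Cdc34 list they included Skp1, the adaptor of cullin 1 ligases, by 0.57 and Ube2g1, another E2 enzyme, by 0.44. Both calls were lost without null vehicle replicate 1 or null CDDO-Im replicates 2 or 3, and that of Ube2g1 also without null vehicle replicate 2. Ube2r2, a close relative of Cdc34, gave 0.03 in wild type and 0.61 in null liver, and the latter was not called. Det1, a cullin 4 partner, gave -0.41 in wild type. Without wild type vehicle replicate 3, 4 of the 15 and 3 of the 18 were called in wild type. The null counts ranged from 0 to 4 over the arrays left out.

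Of 11 Greatwall and PP2A genes beside Arpp19, 0 were called in wild type (limma, 3 unadjusted). In null liver 1, Ppp2r2d, rose by 0.43, and the genotype difference was called for 0 of the 11 (1 unadjusted). The Ppp2r2d call held in 4 of 12 fits with 1 array left out, those without wild type CDDO-Im replicate 1 or any 1 wild type vehicle array. Ensa, the relative of Arpp19, named here for that relation, gave -0.22 in wild type. Of 7 partners and relatives of Pir and Osgin1, 0 were called in wild type (limma, 3 unadjusted), and the genotype difference was called for 0 (0 unadjusted). Bcl3, which binds pirin, gave -0.94 in wild type (adjusted p = 0.0713) and fell by 1.10 in null liver (adjusted p = 0.0216), the latter call being lost without null vehicle replicates 2 or 3 or null CDDO-Im replicates 2 or 3. Osgin2 gave -0.44 and -0.38 (adjusted p = 0.150 and 0.147, limma).

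The 8 genes lie on 7 chromosomes. Cds2 and Lgr4 share chromosome 2 with Nfe2l2 itself. On their main probe sets they differed between genotypes with vehicle by -0.01 ± 0.12 and -0.04 ± 0.07. The other Cds2 probe sets differed by -0.38 to 0.14 and the other Lgr4 one by 0.11. Their adjusted p-values were 0.408 or more, by limma over the probe sets that name a single gene. Of the 16 nearest measured neighbours in RefSeq gene order, 14 were not called in wild type, with effects of -0.22 to 0.27, and for 6 of the 8 genes neither neighbour was called. Over all genes, 0.978% were called higher and 0.846% lower in wild type. Among the 14, Pcna, beside Cds2, had the highest effect and separate groups, where 8.42% of all genes were higher without overlap.

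The exceptions were Ephx1, beside 9130409I23Rik, and Ubap1, near Dcaf12. Ephx1, the microsomal epoxide hydrolase and itself a well known target, rose by 2.63 ± 0.34 in wild type (limma, adjusted p = 0.00191) and by 1.26 in null liver (adjusted p = 0.0499). Its genotype difference of 1.37 was not called (adjusted p = 0.513). The null call was lost in 8 of 12 fits with 1 array left out, namely all 3 without a wild type CDDO-Im array, and those without wild type vehicle replicate 1, null vehicle replicates 1 and 2 and null CDDO-Im replicates 2 and 3. Ubap1 rose by 0.67 ± 0.09 in wild type (adjusted p = 0.00293) and differed by 0.09 in null liver (adjusted p = 0.673). The genotype difference of Ubap1, 0.58, was not called either (adjusted p = 0.188, limma). Both wild type calls held with any 1 of the 12 arrays left out.

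**Figure D4:**
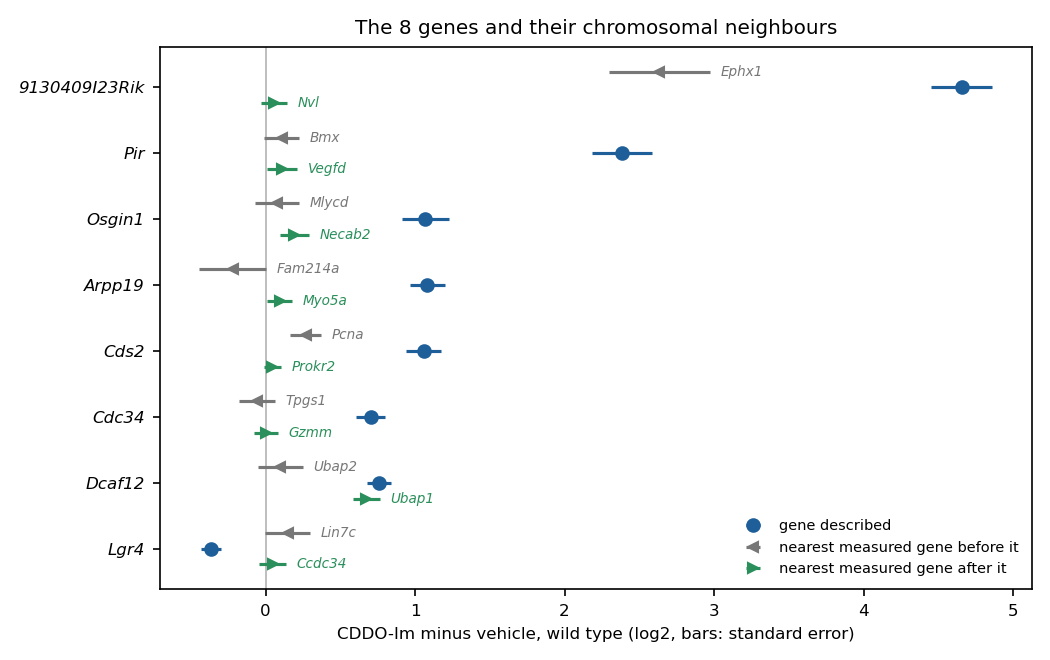
Effect of CDDO-Im in wild type liver on each of the 8 genes and on the nearest measured gene on either side (log2 units), with bars of 1 SE. Among the 16 neighbours, Ephx1 at 2.63 and Ubap1 at 0.67 stand apart from the other 14, which lie between -0.22 and 0.27.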

How the data were processed

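The deposited table holds a log2 intensity for each probe set on each array. The submitters' processing notes name RMA as the method. The version, and any aligner or genome build, are not given in the sources used here. RMA normalizes all arrays to a common distribution and compresses low intensities. Of 45101 probe sets, 64 controls were left out, and 34945 name 1 gene, 932 several and 9160 none; 34741 were matched by Entrez identifier to RefSeq.

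One probe set a gene, the brightest over 12 arrays, was fitted with limma 3.58.1 (R 4.3.3, statmod 1.5.0), with 1 mean per group and two-sided moderated tests. P-values were adjusted by Benjamini-Hochberg over 18193 genes, at 0.05. The prior had 3.81 degrees of freedom beside 8 residual ones. The genes, lists and rules were chosen with earlier results of these data known. Named genes are the 8, the 3 most correlated with each, and Nfe2l2 and Nqo1. Of the nearest neighbours, the text names only Ephx1, Ubap1 and Pcna. In each list, genes were named from the 3 with the smallest adjusted p for the genotype difference and the 2 in wild type. Not all of these are named. Keap1 was measured, but its levels are not given. Cds1 and Ensa were named for their relation, and Ptpmt1 for its calls between genotypes, after their values were seen. Replicate numbers were not used to pair the arrays in the main fit. Over 18 pairs of same-numbered arrays of different groups, the correlation of deviations ran from -0.30 to 0.28, and 4 exceeded 0.1. Between differently numbered arrays it ran from -0.40 to 0.47. With 3 arrays a group, these values cannot show whether the numbers mark a pairing. The fit was tested on simulated data. Alternatives left out each array, or changed the replicate block, array weights, arrays used, probe set per gene, level filter, normalization, variance prior and threshold.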

Additional observations from a re-analysis of the deposited data

Results flagged for a closer look

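The genotype difference (the effect in wild type less that in null liver) passed the test for 18 genes named above, in log2 units. For the 8 genes described it was used in choosing them: 9130409I23Rik 3.95, Pir 2.43, Osgin1 1.52, Cds2 1.12, Arpp19 1.12, Cdc34 0.84, Dcaf12 0.67 and Lgr4 -0.62. The other 10 are genes that follow them across the arrays: Srxn1 2.81, Gstm4 2.75, Gstm3 2.71, Pgd 2.50, Cbr1 2.03, Nqo1 2.03, Cbr3 1.95, Gsr 1.80, Ugt2b35 1.52 and Slc48a1 1.30. Since these 10 were picked by their likeness to the 8, their difference is not independent of that choice. Groups of 3 arrays are too small to test for a sample that stands apart.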

How the results depend on the processing

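Of the 8 genes, 7 to 8 were called in wild type under every alternative run, and 8 in the null against wild type comparison under CDDO-Im in all but 2 settings (6 with the second brightest probe set, 7 of 7 above the median level). The genotype difference was less stable. It was called for 8 with array weights or all probe sets, 7 with quantile normalization and 6 of 7 above the median level, but for 3 with the replicate block, 5 with the mean of probe sets, 4 with the second brightest, 4 with median centring, 5 with an intensity trend, 4 without both acinar arrays and 2 at an adjusted p under 0.01. With 1 array left out it was called for 2 to 6. The cause was not tested.

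The null count, 1, ranged from 0 to 2 with 1 array left out: 1 without wild type vehicle replicate 1 or wild type CDDO-Im replicate 1, 2 without wild type vehicle replicate 3, and 0 without any of the other 9. It was 2 with array weights and 0 with the mean of probe sets, the second brightest, an intensity trend, without the acinar arrays or at 0.01. The vehicle count of 0 was 0 in each fit with 1 array left out and 1, Arpp19, with the second brightest probe set. With that probe set Lgr4 turned direction, to 0.095 in wild type, -0.043 in null liver, 0.14 for the genotype difference and -0.027 between genotypes under CDDO-Im. With the replicate block the wild type count was 8, the null count 1, and the counts between genotypes 8 and 0. With 3 arrays a group, differences near the spread of a gene could not be resolved, and values near the background are compressed.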
